A study of Homo sapiens with 17 samples.

Results

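The genes described here encode surface ligands through which a fibroblast is recognised or tolerated by natural killer (NK) cells, T cells and macrophages. They were the rows of the deposited count tables whose symbol was MICA, MICB, ULBP1, ULBP2, ULBP3, CD274, PDCD1LG2, CD47 or HLA-E, and all 9 were found among 41040 named genes. The counts came from bulk RNA-seq of IMR-90, a diploid fibroblast line from human fetal lung. Cells of week 0 were untreated (D0, n = 5 libraries), and cells of week 1 (D7, n = 6) and week 4 (D28, n = 6) had first been exposed to 20 µM etoposide for 48 h and then kept without the drug. Etoposide traps topoisomerase II on DNA and causes double-strand breaks, and the study used it to induce senescence, a lasting arrest of the cell cycle. Untreated cells were sampled only at week 0, so treatment and time in culture cannot be told apart. Nothing in the labels ties the libraries of a group to separate dishes, so each p-value rests on a spread among libraries that may be only technical.

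MICA, MICB and the ULBP proteins are ligands of NKG2D, an activating receptor of NK cells and of many T cells, and are known to appear on cells after DNA damage and other stress. CD274 encodes PD-L1 and PDCD1LG2 encodes PD-L2, the ligands of the inhibitory T cell receptor PD-1. CD47 binds SIRPA on macrophages and restrains phagocytosis, while HLA-E presents leader peptides of other HLA class I proteins to the NKG2A and NKG2C receptors. Senescent cells are known to be cleared in part by NK cells and macrophages.

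The ligand genes sit in a few clusters of the genome, and the promoters of the members that moved together or apart are printed here for that reason. Sequences of 250 bases before the annotated start were taken from a set of RefSeq promoters (GRCh38.p14). The set at hand held 7 of the 9 members and lacked PDCD1LG2 and HLA-E, which says nothing of RefSeq itself. All are written 5′ to 3′ in the direction of transcription, and capitals mark matches to the motifs named after them. The windows are chr6:31403345-31403594 (plus strand) for MICA, chr6:149963693-149963942 (plus strand) for ULBP1, chr6:149941764-149942013 (plus strand) for ULBP2, chr6:150069122-150069371 (minus strand) for ULBP3 and chr9:5450292-5450541 (plus strand) for CD274.
MICA: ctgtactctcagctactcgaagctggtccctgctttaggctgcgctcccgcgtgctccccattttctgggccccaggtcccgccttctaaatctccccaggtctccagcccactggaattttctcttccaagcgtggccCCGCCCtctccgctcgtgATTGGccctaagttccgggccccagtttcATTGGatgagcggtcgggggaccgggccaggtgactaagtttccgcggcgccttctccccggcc
ULBP1: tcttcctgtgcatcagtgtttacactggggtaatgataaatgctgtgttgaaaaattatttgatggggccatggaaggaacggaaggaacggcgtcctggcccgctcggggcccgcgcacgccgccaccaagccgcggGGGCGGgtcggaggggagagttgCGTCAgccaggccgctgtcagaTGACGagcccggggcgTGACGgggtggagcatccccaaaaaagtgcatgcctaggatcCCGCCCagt
ULBP2: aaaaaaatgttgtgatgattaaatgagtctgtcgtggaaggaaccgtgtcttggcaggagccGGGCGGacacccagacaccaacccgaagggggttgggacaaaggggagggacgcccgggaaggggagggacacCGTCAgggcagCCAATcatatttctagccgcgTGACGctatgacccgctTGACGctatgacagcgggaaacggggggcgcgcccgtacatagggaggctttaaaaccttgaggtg
ULBP3: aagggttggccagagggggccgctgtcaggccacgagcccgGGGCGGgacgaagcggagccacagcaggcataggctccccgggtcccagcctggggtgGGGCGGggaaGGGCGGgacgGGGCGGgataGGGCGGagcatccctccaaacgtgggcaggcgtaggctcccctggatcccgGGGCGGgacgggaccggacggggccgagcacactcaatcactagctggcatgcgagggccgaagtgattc
CD274: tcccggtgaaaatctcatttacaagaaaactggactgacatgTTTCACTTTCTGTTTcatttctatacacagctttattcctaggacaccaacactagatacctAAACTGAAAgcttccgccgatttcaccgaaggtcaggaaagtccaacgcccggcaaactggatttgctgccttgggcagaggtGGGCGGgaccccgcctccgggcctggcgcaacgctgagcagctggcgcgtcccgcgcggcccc

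A search of both strands for 7 motifs gave a description of these letters only. The GC box GGGCGG was found in all 7 matched members, with 6 matches each in ULBP3 and CD47, 2 in ULBP1 and 1 each in MICA, MICB, ULBP2 and CD274, and in 42.6% of 35116 RefSeq promoters cut to the same length. The CCAAT letters, known as the binding site of NF-Y, occurred in 3 members (2 matches in MICA, 1 in MICB, 1 in ULBP2) and in 32.0% of promoters. The letters TGACG, the core of cyclic AMP response elements, had 3 matches in ULBP1, 3 in ULBP2 and 1 in CD47, against 21.2% of promoters with a match. ULBP3, which lies in the same cluster as ULBP1 and ULBP2, had no TGACG in its window, and neither had MICA, MICB or CD274. Members with and without these letters were thus both among those that rose at week 1, ULBP1 and ULBP2 with them and MICA without. The spaced repeat TTTCNNTTT, which resembles interferon response elements, had 3 matches in CD274, of which the first and second overlap, and none in the other members, against 9.2% of promoters. The AP-1 site TGAGTCA (4.2% of promoters), the E-box CACGTG (6.3%) and the TATA box TATAAA (10.7%) were in none of the 7 windows.

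Libraries held 77.2 to 102.8 M counts over named genes, and levels are CPM, the counts of a gene per 1 M counts of a library whose size was scaled by TMM, edgeR's trimmed-mean factor. A difference was called at an adjusted p under 0.05 in edgeR's quasi-likelihood test with Benjamini-Hochberg adjustment over 16891 genes, and fold changes and their standard errors (SE) come from that model. All 10 fibroblast markers averaged over 1 CPM in every group, and their summed level was 32960 to 38880 CPM at week 0, 42700 to 44750 at week 1 and 54470 to 57580 at week 4. The 12 NK and T cell markers together reached at most 0.646 CPM in any library, with CD2 at 0. The 10 myeloid and B cell markers together reached at most 1.51 CPM. The 8 epithelial markers, led by the keratin KRT18, summed to 71.4 to 78.6 CPM at week 0, 239 to 280 at week 1 and 199 to 218 at week 4. Of these, 5 averaged over 1 CPM at week 0, 4 at week 1 and 4 at week 4. The 8 endothelial markers, led by TEK, summed to 84.1 to 104, 58.6 to 62.4 and 52.2 to 76.8 CPM, and only 2 of them averaged over 1 CPM in each group. The part of these shifts in the members' changes was not tested, and in bulk RNA fewer cells of a type and less RNA per cell cannot be told apart.

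At week 1, 5 of the 7 members that could be tested were higher than in untreated cells (MICA, ULBP1, ULBP2, PDCD1LG2 and CD47) and 2 were lower (ULBP3 and CD274). Among all tested genes, 32.9% rose and 34.0% fell in that comparison, so that a change as such was common. In each of the 7 members the week 1 libraries did not overlap the week 0 libraries, which held with a call for 48.7% of all tested genes. At week 4 against week 0, ULBP1, PDCD1LG2 and CD47 were higher and ULBP3 and CD274 lower, again without overlap, while MICA and ULBP2 were not called. The background there was 33.9% of genes higher, 33.7% lower and 49.0% called without overlap. From week 1 to week 4, MICA, ULBP1, ULBP2 and PDCD1LG2 fell, all without overlap, and none of the members rose, against 18.6% of genes lower, 21.8% higher and 28.5% called without overlap. The median log2 fold change of the 7 tested members was 0.86, 0.26 and -0.48 in the 3 comparisons, and that of all tested genes was -0.0221, 0.00213 and 0.0112. Comparisons share groups, so the week 1 and week 4 values of a member against week 0 are set side by side and not counted as separate evidence.

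**Figure D1:**
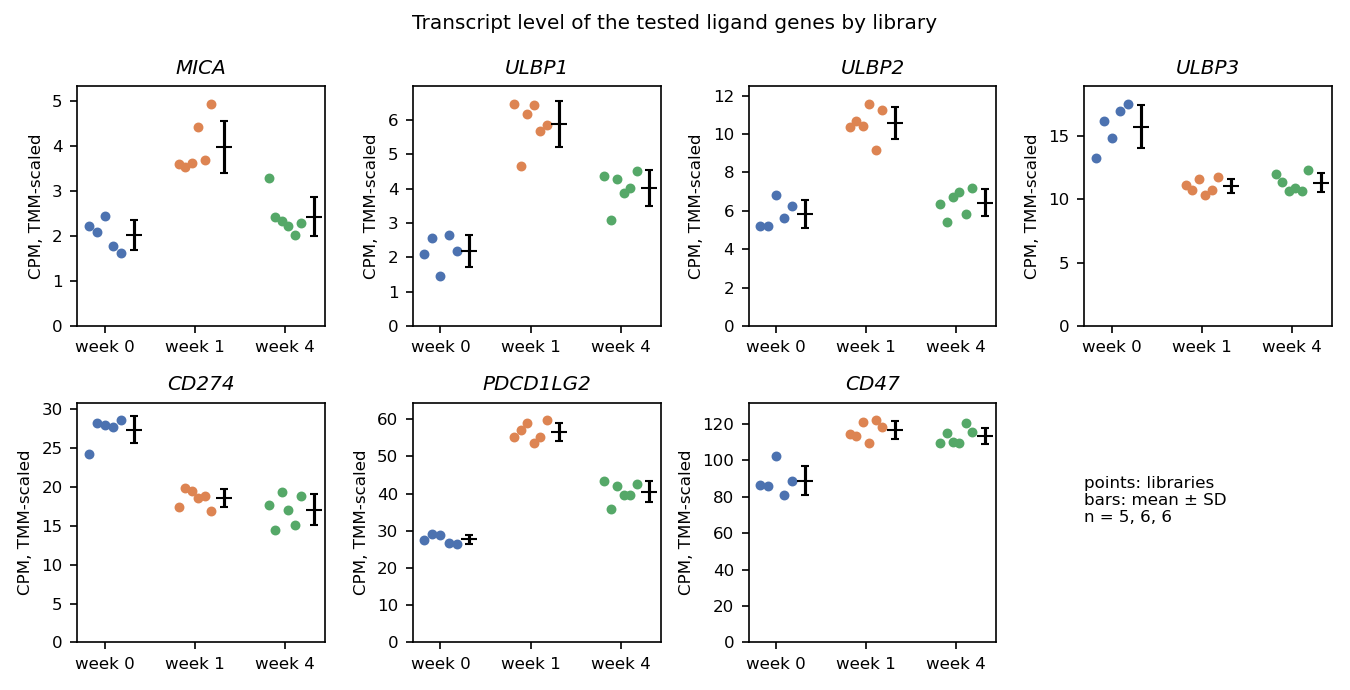
Level of each tested ligand gene in CPM on TMM-scaled library sizes (vertical axes, starting at 0) by week, with a point for every library and bars for the mean ± SD (n = 5, 6 and 6). MICA, ULBP1, ULBP2 and PDCD1LG2 are highest at week 1, ULBP3 and CD274 are highest at week 0, and CD47 is lowest at week 0.

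ULBP1, an NKG2D ligand held in the membrane by a lipid anchor, showed the largest fold change among the members at week 1. Its level was 2.11, 2.58, 1.47, 2.64 and 2.18 CPM in the untreated libraries (replicates 1, 3, 4, 5 and 6), 4.67 to 6.48 at week 1 (median 6.02) and 3.08 to 4.53 at week 4 (median 4.16). Every treated library was above every untreated one, and the week 4 libraries all lay below those of week 1. The change at week 1 was 2.68-fold (log2 1.42 ± 0.13 SE, adjusted p = 3.1e-09), and at week 4 it was 1.83-fold (log2 0.87 ± 0.13 SE, adjusted p = 4.8e-06). Between week 1 and week 4 the level fell by 0.55 on the log2 scale (± 0.12 SE, adjusted p = 9.5e-04).

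MICA, a transmembrane NKG2D ligand encoded in the HLA region, was at 2.21, 2.10, 2.44, 1.77 and 1.62 CPM in untreated libraries, or 159 to 211 counts. It was at 3.54 to 4.94 CPM at week 1 (median 3.65) and at 2.01 to 3.28 at week 4 (median 2.31). All week 1 libraries were above all others, while week 4 and week 0 overlapped. The week 1 level was 1.96-fold that of week 0 (log2 0.97 ± 0.13 SE, adjusted p = 1.4e-06), and the fall from week 1 to week 4 was 1.64-fold (log2 -0.71 ± 0.13 SE, adjusted p = 1.0e-04). The difference between week 4 and week 0 was not called (log2 0.26 ± 0.14 SE, adjusted p = 0.098). Whether it was called depended on the libraries and the scaling used, in both directions. The difference was called without week 0 replicate 4 (log2 0.33, adjusted p = 0.044), without week 0 replicates 1 and 4 (log2 0.40, adjusted p = 0.023) and with upper-quartile scaling (log2 0.32, adjusted p = 0.039). Other settings lowered it, to 0.065 on library totals (adjusted p = 0.68), 0.099 in the smaller tables alone (adjusted p = 0.58) and 0.15 with a file class term (adjusted p = 0.33). Leaving out week 4 replicate 1, the highest of its group, lowered the log2 difference to 0.16.

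ULBP2, another lipid-anchored NKG2D ligand, followed the same course at a higher level. Untreated libraries held 5.19, 5.2, 6.85, 5.60 and 6.26 CPM, week 1 libraries 9.15 to 11.6 (median 10.6) and week 4 libraries 5.43 to 7.21 (median 6.54). Week 1 stood above both other groups without overlap, and week 4 lay within and just above the untreated range. The rise at week 1 was 1.82-fold (log2 0.86 ± 0.09 SE, adjusted p = 2.1e-08), and the fall by week 4 was 1.65-fold (log2 -0.72 ± 0.09 SE, adjusted p = 7.0e-07). Week 4 against week 0 gave a log2 difference of 0.14 ± 0.09 SE (adjusted p = 0.17). It was called with upper-quartile scaling (log2 0.21, adjusted p = 0.043) and without week 0 replicate 4 (log2 0.21, adjusted p = 0.049), and turned to -0.049 on library totals without scaling factors (adjusted p from 0.043 to 0.65 over all alternatives).

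ULBP3, the third lipid-anchored ligand among the members, went the other way. It was at 13.2, 16.2, 14.8, 17 and 17.6 CPM in untreated libraries, 10.3 to 11.7 at week 1 (median 11) and 10.7 to 12.3 at week 4 (median 11.2). Each untreated library was above each treated one, and the treated groups overlapped. The level was 1.43-fold lower at week 1 (log2 -0.51 ± 0.07 SE, adjusted p = 1.2e-06) and 1.39-fold lower at week 4 (log2 -0.48 ± 0.07 SE, adjusted p = 3.2e-06). Between the treated groups the log2 difference was 0.04 ± 0.07 SE (adjusted p = 0.72). RAET1G, an NKG2D ligand gene of the same cluster, was also lower, at 2.27 ± 0.231 CPM (SD, n = 5) at week 0, 1.34 ± 0.210 (n = 6) at week 1 and 1.14 ± 0.274 (n = 6) at week 4 (edgeR adjusted p = 1.4e-04 and 5.9e-06 against week 0), with the week 1 call lost in the 4 libraries whose deposited tables were larger (adjusted p = 0.073).

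Reads of these related genes can be shared, and how the counting treated such reads is not given in the sources used here. Of all 50-base windows of the longest protein-coding transcript in GENCODE v29, 32.2% in ULBP2 also occurred in transcripts of other genes, mostly RAET1L and RAET1G. The share was 12.4% in ULBP3 and 6.85% in ULBP1, in both cases with RAET1K, and ULBP1 and ULBP3 had 61 windows in common, and 2.85% in MICA, of which 45 windows were shared with MICB. CD274, PDCD1LG2 and CD47 shared no window with another gene. RAET1L itself averaged at most 0.0811 CPM in any group, whereas RAET1G moved opposite to ULBP2 at week 1. How shared reads bear on the ULBP2 level was not tested.

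MICB, the closest relative of MICA, had 0 counts in all 17 libraries. Were counting error the only limit, that would allow up to 0.0292 to 0.0389 CPM per library (3 counts of the total). HLA-E had 0 to 10 counts per library. Neither entered a test, and neither count can be read as a level of expression or as a limit on it, because almost the whole stretch of chromosome 6 around them was empty. From HLA-F to TAPBP, 138 protein-coding genes of GENCODE v29 were listed in the files. Of these, 104 (75.4%) were at 0 in every library and 130 (94.2%) averaged under 0.1 CPM, against 62 of 801 (7.7%) and 229 (28.6%) on the rest of the chromosome. Genes that every cell uses were among those at 0, such as TUBB, which encodes a tubulin, and CSNK2B, a subunit of casein kinase 2. RPS18, a ribosomal protein gene, held 10 to 88 counts per library. HLA-C held 2 to 14 counts. Only 8 of the 138 genes (5.8%) entered the test, against 583 of 801 (72.8%) elsewhere on the chromosome, and MICA and HLA-B were among them. Their levels may therefore be partial, and the cause of the missing counts was not tested. HLA-F and TAPBP need not mark the ends of the stretch. The flanking genes plotted before HLA-F, from ZNF311 to ZFP57, were all at 0. After TAPBP, ZBTB22 averaged 0.0026 CPM and DAXX 0.27 on library totals.

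**Figure D2:**
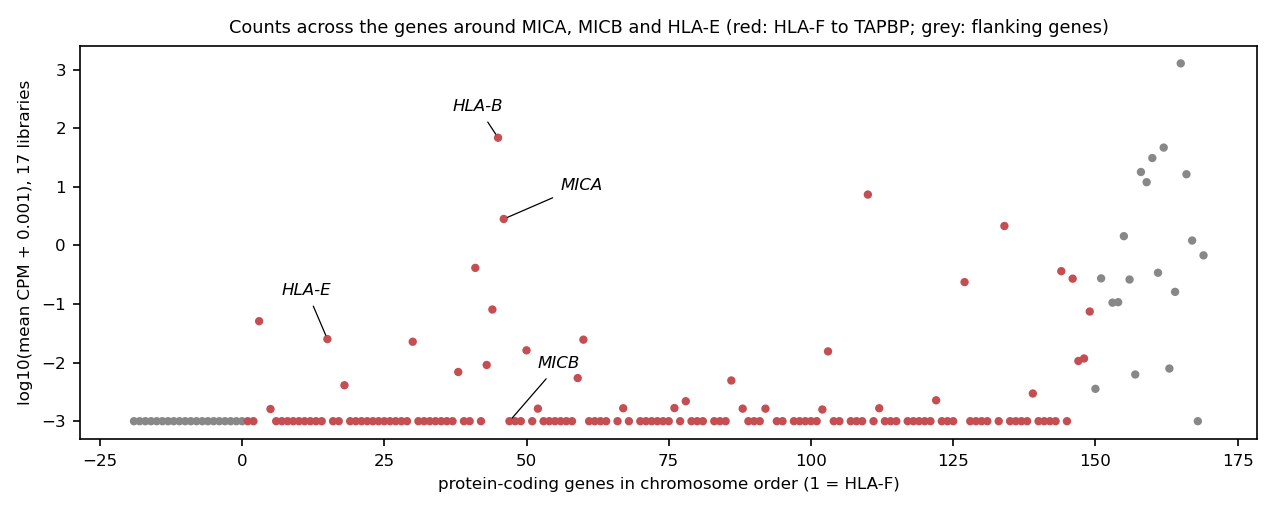
Mean level over 17 libraries, as log10 of CPM on library totals plus 0.001 (vertical axis), of protein-coding genes in chromosome order (horizontal axis, 1 = HLA-F), with genes from HLA-F to TAPBP in red and flanking genes in grey. Most red points lie at the floor of 0 counts, MICB among them, while MICA and HLA-B stand out above it. The grey points before HLA-F also lie at the floor.

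PDCD1LG2 had the smallest adjusted p of any member. Untreated libraries held 27.5, 29.2, 28.9, 26.6 and 26.5 CPM, week 1 libraries 53.5 to 59.7 (median 56.2) and week 4 libraries 35.9 to 43.4 (median 40.9). The 3 groups did not overlap, in the order week 0, week 4, week 1. The level was 2.04-fold higher at week 1 (log2 1.03 ± 0.05 SE, adjusted p = 7.8e-14) and 1.46-fold higher at week 4 (log2 0.55 ± 0.05 SE, adjusted p = 4.4e-09). It fell by 0.48 on the log2 scale between them (± 0.05 SE, adjusted p = 7.3e-08).

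CD274, next to PDCD1LG2 on chromosome 9, was lower at both times. Its level was 24.2, 28.3, 28, 27.8 and 28.6 CPM in untreated libraries, 16.9 to 19.9 at week 1 (median 18.7) and 14.5 to 19.3 at week 4 (median 17.3). All untreated libraries were above all treated ones, and week 1 and week 4 overlapped. The fall was 1.48-fold at week 1 (log2 -0.56 ± 0.07 SE, adjusted p = 5.0e-07) and 1.60-fold at week 4 (log2 -0.68 ± 0.07 SE, adjusted p = 3.0e-08). Week 4 against week 1 gave a log2 difference of -0.12 ± 0.07 SE (adjusted p = 0.19).

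CD47 was the member with the most counts and the smallest called changes. It was at 86.5, 86.1, 102, 80.7 and 88.4 CPM in untreated libraries, 110 to 122 at week 1 (median 116) and 110 to 120 at week 4 (median 113). Untreated libraries were below all treated ones, and the treated groups overlapped. The rise was 1.31-fold at week 1 (log2 0.39 ± 0.05 SE, adjusted p = 6.9e-07) and 1.28-fold at week 4 (log2 0.35 ± 0.05 SE, adjusted p = 3.2e-06). Week 4 against week 1 gave a log2 difference of -0.04 ± 0.05 SE (adjusted p = 0.57). Without scaling factors the median of all tested genes shifted to -0.184 at week 1 and -0.191 at week 4, and 4344 genes rose and 7438 fell at week 1 instead of 5565 and 5740 (week 4, 4201 and 7649 instead of 5722 and 5692). On that scale CD47 still rose, by 0.23 and 0.16 in log2.

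**Figure D3:**
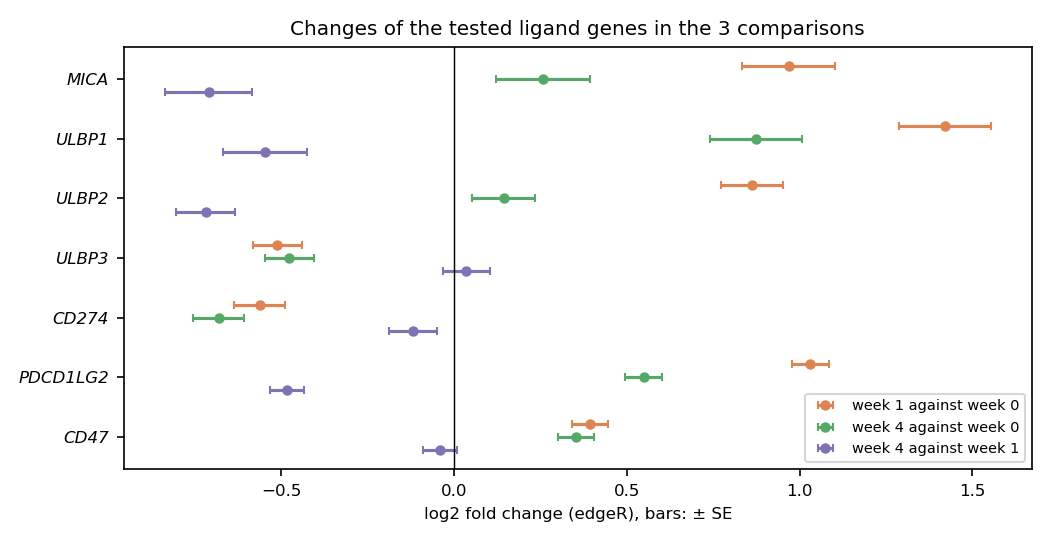
Log2 fold change of each tested ligand gene (horizontal axis) with its standard error as a bar, for the 3 pairwise comparisons of the groups. MICA, ULBP1, ULBP2 and PDCD1LG2 have positive values at week 1 and negative values from week 1 to week 4, while ULBP3 and CD274 are negative against week 0 at both times.

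Levels were compared between genes only per length, as CPM per kilobase of the deposited gene length (SD over libraries), and MICA's place holds only as far as its counts are complete. At week 0 the order was PDCD1LG2 (11.4 ± 0.526), CD47 (10.8 ± 0.973), CD274 (6.66 ± 0.433), ULBP3 (5.07 ± 0.557), ULBP2 (4.36 ± 0.541), ULBP1 (0.684 ± 0.146) and MICA (0.527 ± 0.0860). In that order the libraries of PDCD1LG2 and CD47, of ULBP3 and ULBP2, and of ULBP1 and MICA overlapped. At week 1 PDCD1LG2 stood at 23.3 ± 0.987 and CD47 at 14.2 ± 0.589, and ULBP2 (7.92 ± 0.633) had passed both CD274 (4.51 ± 0.281) and ULBP3 (3.55 ± 0.176). ULBP1 (1.83 ± 0.209) and MICA (1.03 ± 0.15) were lowest, and no neighbours in the order overlapped at week 1. At week 4 the order was as at week 1, but ULBP2 (4.81 ± 0.513) overlapped CD274 (4.16 ± 0.484), which in turn overlapped ULBP3 (3.64 ± 0.230). The order depends on the length used. ULBP3 is 3111 bases in the deposited tables and 988 in the longest protein-coding GENCODE v29 transcript, and per kilobase of such transcripts ULBP3 stood at 15.95 CPM at week 0 and 11.2 at week 1, above ULBP2 (4.31 and 7.84) at both times, CD47 (16.99) was above PDCD1LG2 (11.7) at week 0, and MICA (0.898) was above ULBP1 (0.699) at week 0.

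Because scaling between libraries can shift every gene, related ligands were also compared as ratios of raw counts within a library, by exact two-sided permutation tests on log2 ratios adjusted over 9 tests. The ratio of PDCD1LG2 to CD274 was 1.02 ± 0.0799 at week 0 (SD, n = 5), 3.07 ± 0.251 at week 1 (n = 6) and 2.39 ± 0.170 at week 4 (n = 6). Both PD-1 ligands thus had near equal raw counts in untreated cells and unequal ones after treatment. The ratio was 3.02-fold higher at week 1 and 2.35-fold higher at week 4 (exact permutation p = 0.0043 each, the smallest these group sizes allow, adjusted p = 0.0056), and 1.28-fold lower at week 4 than at week 1 (exact permutation p = 0.0022, the smallest possible, adjusted p = 0.0056).

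The ratio of ULBP3 to ULBP2 was 2.73 ± 0.385 at week 0, 1.05 ± 0.0984 at week 1 and 1.78 ± 0.204 at week 4. The 3 groups did not overlap, and each pair differed with the smallest possible exact permutation p (adjusted p = 0.0056), by 2.59-fold lower at week 1, 1.53-fold lower at week 4 and 1.69-fold higher from week 1 to week 4. The ratio of ULBP1 to ULBP2 was 0.387 ± 0.112, 0.559 ± 0.0718 and 0.627 ± 0.0579. It was 1.68-fold higher at week 4 than at week 0 (adjusted exact permutation p = 0.0056). At week 1 it was 1.49-fold higher with overlapping groups (adjusted exact permutation p = 0.019), and that call was lost without week 0 replicates 1 and 4 (log2 difference 0.35, adjusted exact permutation p = 0.097). Week 4 against week 1 was not called (exact permutation p = 0.097), except without week 4 replicate 4 (adjusted exact permutation p = 0.048). Adjusted p over all alternatives ran from 0.0089 to 0.097 at week 1 and from 0.048 to 0.19 for week 4 against week 1.

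The labels name no batch, but the deposited tables of week 0 replicates 5 and 6 and week 1 replicates 1 and 2 also held gene lengths and were larger. Within the smaller tables alone the 7 members were called at week 1 in the same directions, and also within the larger ones (both fits with 5 higher and 2 lower). In the smaller tables the log2 ratio differences at week 1 were 1.53 for PDCD1LG2 to CD274, 0.70 for ULBP1 to ULBP2 and -1.30 for ULBP3 to ULBP2, with no overlap between groups, and 4 against 3 libraries cannot give an exact permutation p below 0.057. All week 4 libraries were of the smaller kind, so the larger tables give no value for week 4.

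**Figure D4:**
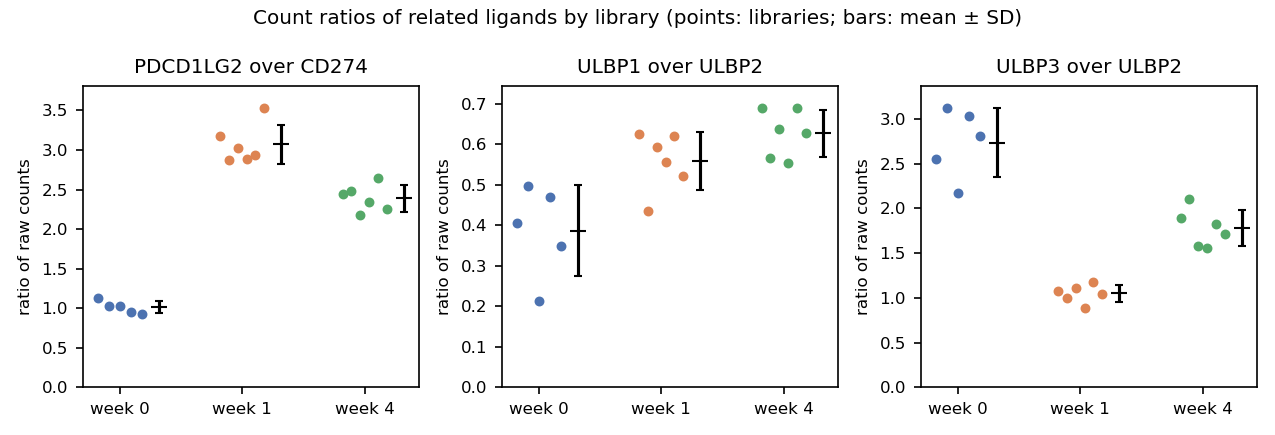
Ratio of raw counts of related ligands within each library (vertical axes, starting at 0) by week, with a point per library and bars for the mean ± SD (n = 5, 6 and 6). PDCD1LG2 over CD274 is near 1 at week 0 and highest at week 1, and ULBP3 over ULBP2 is lowest at week 1.

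As a description with no test, the genes with a mean of at least 5 CPM over all libraries whose log2 level followed a member most closely over the 17 libraries were listed, out of 10117 or 10118 candidates. Group differences and shared scaling enter these correlations. For PDCD1LG2 they were FAM177A1 and VSIR (r = 0.99 each), the latter encoding VISTA, another inhibitory ligand of the B7 family. For ULBP1 they were SH3RF2 and LZTS3 (r = 0.96 each), of which SH3RF2 reached that mean through week 1 (2.17, 9.51 and 4.42 CPM), for ULBP2 NECAP1 (0.97) and F3, the gene of tissue factor (0.95), and for MICA BUD23 and CREB3 (0.94 each). For the falling members they were TPP2 (0.97) and RNF145 (0.96) with ULBP3, and EIF1AD (0.97) and PUM3 (0.96) with CD274. CD47 was followed by GINM1 (0.98) and SESN1 (0.97), a stress-induced sestrin and p53 target.

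The surroundings of the members in their pathways are given from 10 gene lists, with counts in the edgeR test. Each count stands beside a background of 32.9% of all tested genes higher and 34.0% lower at week 1, and 33.9% higher and 33.7% lower at week 4. Of 8 tested ligands of other activating NK receptors, 4 rose and 1 fell at week 1, and 5 rose and none fell at week 4. PVR, ligand of DNAM-1 and of TIGIT, went from 132 ± 13.4 CPM at week 0 to 319 ± 9.62 at week 1 and 178 ± 6.72 at week 4 (2.42-fold and 1.36-fold higher, adjusted p = 4.6e-15 and 2.8e-07). ICAM1, the adhesion ligand of LFA-1, went from 8.88 ± 0.585 to 68.7 ± 4.93 and 42.4 ± 6.11 CPM (7.74-fold and 4.78-fold higher, adjusted p = 9.6e-18 and 7.8e-16). Both were highest at week 1, as were MICA, ULBP1 and ULBP2. CADM1, ligand of CRTAM, was instead highest at week 4 (92.1, 155 and 224 CPM).

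Among 6 tested ligands of inhibitory NK and leukocyte receptors, 2 rose and 3 fell at week 1, and 2 rose and 2 fell at week 4. HLA-B, which binds inhibitory KIR receptors and supplies a leader peptide, rose from 27.9 ± 1.05 CPM to 78.0 ± 6.67 and 98.9 ± 9.58 (2.80-fold and 3.55-fold, adjusted p = 1.6e-14 and 6.0e-16), from within the nearly empty stretch described above. CDH1, a KLRG1 ligand and epithelial marker, was the other gene called higher, at 0.00408, 0.181 and 0.0363 CPM, with its week 4 call lost without week 0 replicates 1 and 4 (adjusted p = 0.099) or without week 4 replicate 4 (adjusted p = 0.067), in a range over all alternatives from 0.0063 to 0.099. NECTIN3, a ligand of TIGIT, fell 1.71-fold at week 1 and 1.53-fold at week 4. Of 13 leukocyte receptors of the members or of related ligands, 3 had enough counts for a test. KLRD1, a subunit of the HLA-E receptors, was called higher at both times at a mean of at most 0.369 CPM in any group, with its week 1 call lost in the larger tables alone (adjusted p = 0.081, range over alternatives 8.7e-05 to 0.081). CD96, a receptor of PVR and of no member, was at a mean of at most 0.350 CPM. At week 1 it was not called (adjusted p = 0.061) but was with upper-quartile scaling (0.042), DESeq2 (0.042) and limma-voom (0.047), without week 0 replicate 4 (0.013) or both week 0 replicates 1 and 4 (0.019), and without week 1 replicate 5 (0.044), in a range from 0.013 to 0.4. At week 4 it was called higher, and it lost its call without any of 4 single libraries (week 0 replicates 3 or 5, week 4 replicates 1 or 4, adjusted p = 0.057 to 0.079), on library totals (0.07) and in the smaller tables alone (0.099), in a range from 0.0052 to 0.099.

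The list of other B7 family and co-inhibitory ligands also held the costimulatory ligands TNFSF4 and TNFSF9 and the surface enzymes NT5E and ENTPD1. With these counted in, 6 of 14 tested genes rose and 7 fell at week 1, and 7 rose and 4 fell at week 4. VSIR rose from 9.90 ± 0.763 CPM to 36.2 ± 1.76 and 19.4 ± 1.76 (3.66-fold and 1.96-fold, adjusted p = 2.2e-16 and 2.1e-11). TNFSF4, the costimulatory OX40 ligand, rose from 17.2 ± 2.77 CPM to 86.4 ± 3.95 and 61.0 ± 5.18. CD200, which restrains myeloid cells through CD200R, rose from 2.11 ± 0.199 to 6.98 ± 0.544 and 6.85 ± 0.923 CPM. BTN3A2, a butyrophilin, was lower at both times, at 22.2, 13.1 and 18.3 CPM.

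Genes that act on PD-L1 or on its induction by interferon-gamma were listed with PLGRKT, included only as a neighbour of CD274. These genes were split, with 7 higher and 6 lower of 17 at week 1 and 7 higher and 5 lower at week 4. PLGRKT was among the lower ones at both times. CMTM6, which keeps PD-L1 at the cell surface, was at 133 ± 13.3, 88.2 ± 2.84 and 99.7 ± 10.2 CPM (1.5-fold and 1.33-fold lower, adjusted p = 5.3e-08 and 9.3e-06), whereas its relative CMTM4 rose 1.46-fold and 1.68-fold. PLGRKT, the neighbour of CD274 on its other side, fell 1.72-fold and 1.88-fold, from untreated libraries spread over 13.8 to 30.1 CPM. Over all alternatives its log2 change ran from -1.015 to -0.358 at week 1 and from -1.17 to -0.523 at week 4, with the calls kept. SOCS3, a feedback inhibitor of cytokine signalling, fell 2.64-fold and 2.02-fold, and STAT3 rose 1.58-fold and 1.68-fold. STUB1, a ubiquitin ligase that acts on PD-L1, rose 1.61-fold and 1.29-fold.

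The list around release of NKG2D ligands from the surface mixed proteases and a partner with the metalloprotease inhibitors TIMP1, TIMP2 and TIMP3. Of its 11 genes, 10 rose and none fell at week 1, and 9 rose and none fell at week 4. Both proteases and inhibitors were among the risers, so the count gives no direction for release. TIMP3, an inhibitor of ADAM17 and other metalloproteases, had the smallest adjusted p and went from 551 to 2506 and 2080 CPM (4.54-fold and 3.77-fold, adjusted p = 9.5e-17 and 9.3e-16). TIMP1, another metalloprotease inhibitor, rose 2.71-fold and 2.31-fold, and TIMP2, a related inhibitor, rose 1.39-fold at week 1 (adjusted p = 1.7e-07). At week 4 TIMP2 was not called (log2 0.13, adjusted p = 0.057), but several settings called it, among them DESeq2 (0.034) and the smaller tables alone (0.011), as did leaving out any of week 0 replicates 5 (0.029) or 6 (0.026) or week 4 replicate 6 (0.016). Over all alternatives its adjusted p ran from 0.0031 to 0.6. Of the proteases, MMP9 rose at both times from very few counts (0.0247, 0.111 and 0.573 CPM, adjusted p = 0.0032 and 1.5e-07). MMP2 rose 1.42-fold and 1.84-fold, ADAM15 1.88-fold and 1.54-fold, and ADAM9 1.48-fold and 1.26-fold. ADAM17 rose 1.26-fold and 1.33-fold, ADAM10 1.18-fold and 1.25-fold, and MMP14 1.19-fold and 1.16-fold. On library totals without scaling factors ADAM10 and MMP14 were not called at either time (adjusted p = 0.33 and 0.097 at week 1, 0.079 and 0.74 at week 4). Over all alternatives, adjusted p ran from 0.00019 to 0.33 and from 6.8e-06 to 0.079 for ADAM10, and from 2e-07 to 0.097 and from 1.5e-05 to 0.74 for MMP14.

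**Figure D5:**
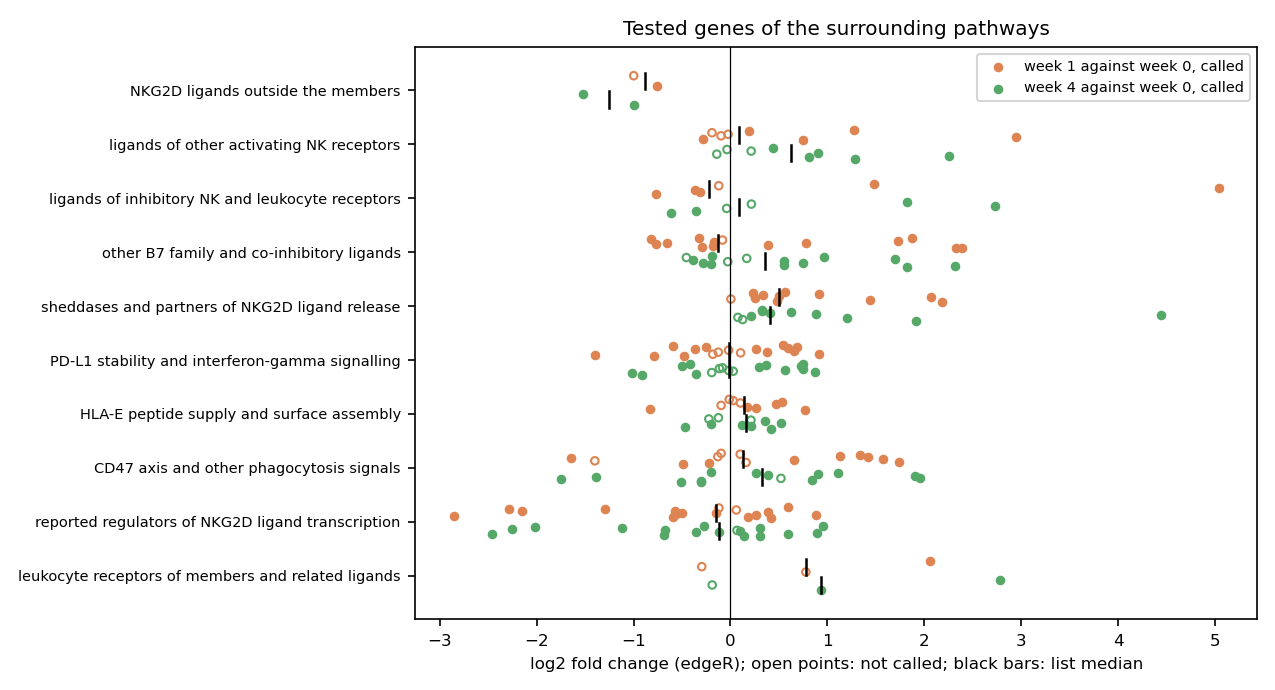
Log2 fold change (horizontal axis) of the tested genes of 10 lists around the ligands (rows), for week 1 (orange) and week 4 (green) against week 0, with filled points for called genes, open points for others and black bars for list medians. The called genes of the sheddase list, TIMP inhibitors included, all lie to the right of 0, while most other lists hold called genes on both sides.

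Of 10 tested genes for the peptide supply and surface assembly of HLA-E, 5 rose and 1 fell at week 1, and 5 rose and 2 fell at week 4. TAP1, TAP2 and TAPBP of this list lie in the nearly empty stretch described above, so their counts may be partial. TAP1 had 0 counts and TAPBP 2 to 13 per library, and neither was tested. TAP2, tested and not called, had 11 to 36. HM13, the signal peptide peptidase that frees leader peptides, rose 1.71-fold and 1.34-fold, and the trimming peptidase ERAP2 rose 1.39-fold and 1.44-fold. NLRC5, the transactivator of HLA class I genes, fell 1.78-fold and 1.39-fold. B2M, the light chain of HLA-E, was not called at either time (log2 -0.01 and -0.12, adjusted p = 0.94 and 0.46), but its untreated libraries ran from 45.9 to 103.2 CPM against 65.0 to 70.8 at week 1. Without week 0 replicates 1 and 4, B2M was called higher at both times (log2 0.41 and 0.30, adjusted p = 7.7e-07 and 5.1e-05), and in the smaller tables alone it was called lower (log2 -0.27 and -0.40, adjusted p = 0.046 and 0.0023).

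On the CD47 axis and among other phagocytosis signals, 6 of 14 genes rose and 3 fell at week 1, and 7 rose and 6 fell at week 4. That list mixed signals for and against engulfment with receptors, so its counts give no direction for phagocytosis. QPCTL, the glutaminyl cyclase that modifies CD47 for binding to SIRPA, rose from 8.86 ± 0.978 CPM to 19.4 ± 0.919 and 16.5 ± 0.941 (2.19-fold and 1.87-fold, adjusted p = 1.9e-12 and 1.1e-10). THBS2, of the thrombospondin family of which THBS1 binds CD47, rose 2.67-fold and 3.74-fold, and LRP1, an engulfment receptor, 2.98-fold and 3.89-fold. MFGE8, which bridges phosphatidylserine to phagocytes, rose 3.33-fold and 1.79-fold. CD24, a ligand of Siglec-10, fell 3.13-fold and 2.61-fold from 3.55 CPM at week 0. THBS1 rose 1.31-fold at week 4 and was not called at week 1 (log2 -0.13, adjusted p = 0.058), where THBS1 was called lower without week 0 replicate 1 (log2 -0.19, adjusted p = 0.0014) or 4 (log2 -0.16, adjusted p = 0.031), in a range from 1e-05 to 0.52 over all alternatives.

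Of 17 genes reported to regulate transcription of NKG2D ligands, 6 rose and 9 fell at week 1, and 7 rose and 9 fell at week 4. The list does not separate activators from repressors, so these counts give no direction for the ligands. The damage kinase ATM rose 1.5-fold and 1.93-fold, MYC 1.84-fold and 1.86-fold, and the NF-kB subunit RELA 1.33-fold and 1.23-fold. The histone methyltransferase EZH2 fell 7.24-fold and 5.50-fold, and E2F1, a driver of S phase entry, fell 4.45-fold and 4.76-fold. The other NKG2D ligand genes outside the members, 2 of 3 tested, had 1 lower at week 1 and 2 lower at week 4, RAET1G in both cases. RAET1E, at a mean of at most 0.197 CPM, was called lower at week 4 with overlapping groups, and lost that call without any of week 0 replicate 5 (adjusted p = 0.14), week 4 replicate 3 (0.053) or week 4 replicate 6 (0.057), in the smaller tables alone (0.18) and with a file class term (0.16), in a range from 0.0074 to 0.18.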

How the data were processed

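The authors deposited a table per library with raw counts by gene symbol, not normalized, and in 4 of them also gene lengths in bases, used here for levels per kilobase. Per the submitters' processing notes the tools were featureCounts 1.4.6 and HISAT2 2.0.5.2 with the mouse build mm10. All symbols are human, which leaves unclear what build the counts rest on. Strand setting, annotation and handling of reads with several matches: not given in the sources used here. The unnamed entry (0.221% to 0.289% of counts) was dropped. The test was edgeR 4.0.16 (R 4.3.3): TMM, filterByExpr by group, a quasi-likelihood fit with a mean per group over 17 libraries, and Benjamini-Hochberg adjustment over 16891 genes. Each standard error is the log2 fold change over the square root of F. The biological coefficient of variation was 11.7%.

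The members and lists were chosen with earlier results of these data known, so no list is independent evidence. Named from each list were up to 2 rising and 2 falling genes with the smallest adjusted p at each time, and genes sharing a receptor or complex with a member, of which some are given. The ADAM and MMP genes, TIMP2 and the genes named between HLA-F and TAPBP were added after their values were seen. Ratios had 0.5 added to each count, and the planned ratio of MICB to MICA could not be formed. Alternatives covered scaling (upper-quartile, RLE), the tool (limma-voom in limma 3.58.1, DESeq2 1.42.0), the filter (none, or 5 CPM in 5 libraries), a replicate block, a term for file class, 1 added to each count, and subsets of libraries (smaller tables, compared groups, each left out, week 0 replicates 1 and 4 left out). Library totals without scaling, the larger tables alone and lengths of reference transcripts were chosen after seeing the data. The edgeR fit alone was run on simulated counts, for week 1 against week 0. Far fewer genes were changed there than were called in the data, so the simulation cannot show how the scaling behaves here. The other fits and the ratio tests were not simulated. Libraries of a group were checked for duplicates: over 40 pairs the smallest chi-square per gene was 7.24, far above sampling noise.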

Additional observations from a re-analysis of the deposited data

Results flagged for a closer look

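Values of the members and of the count ratios were checked for a library far from the rest of its group, in 33 groups of 5 or 6 libraries, and 2 stood out by Dixon's criterion. Chance flags about 1 in 20 groups. CD274 was at 24.24 CPM in week 0 replicate 1, below the other untreated libraries at 27.76 to 28.57 CPM. MICA was at 3.279 CPM in week 4 replicate 1, above the other week 4 libraries at 2.015 to 2.432 CPM. Both calls against week 0 for CD274 held without week 0 replicate 1, and the MICA difference between week 4 and week 0 was 0.16 in log2 without week 4 replicate 1.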

How the results depend on the processing

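Members called numbered 7, 5 and 4 at week 1 and at week 4 against untreated cells, and between the treated groups. With each library left out in turn they numbered 7 to 7, 5 to 7 and 4 to 4, and with a replicate block 7, 5 and 4, with no member's call changed. With the replicate block THBS1 was called lower at week 1 (log2 -0.13, adjusted p = 0.04). No pairing by replicate number was seen: same-numbered libraries correlated at -0.0383 to 0.0671 over 16 pairs, and 1 library correlated best with its own number. Correlations of deviations from group means cannot tell whether same-numbered libraries came from the same culture. Called ratios numbered 3, 3 and 2, with leave-one-out ranges of 3 to 3, 3 to 3 and 2 to 3. In the smaller tables alone 0 of 3 ratios passed at week 1, because 4 against 3 libraries cannot give a lower exact permutation p than 0.057.

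Reversed values were -0.049 for ULBP2 and -0.068 for TIMP2 at week 4 on library totals, and for B2M at week 1 (-0.01 in log2) 0.0061 with RLE scaling, 0.055 with upper-quartile scaling, 0.0058 with DESeq2, 0.066 with limma-voom, 0.044 with a replicate block, 0.0061 with a file class term, 0.49 in the larger tables and 0.41 without week 0 replicates 1 and 4. At week 4 (-0.12) B2M was 0.30 without both. Leave-one-out values of B2M ran from -0.13 to 0.19 at week 1 and from -0.24 to 0.076 at week 4. Apart from the alternative's own construction, the cause was not tested. For single genes and ratios, settings other than leaving out 1 library gave 1344 values with the same direction and side of the threshold, 20 newly called, 16 no longer called and 11 reversed, and leaving out 1 library gave 2019, 10, 8 and 3. The stricter filter left MICA out. Counts of 159 to 369 for MICA and 127 to 592 for ULBP1 per library limit precision most among tested members.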
